A study of Mus musculus with 18 samples.

Results

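The liver makes most of the complement and coagulation proteins of blood plasma, and the mRNAs of 37 of them were followed here in mouse liver RNA-seq. The members were taken by gene symbol from a table of 19057 genes. Of the 37, 16 belong to complement (C3, C4b, C4bp, C6, C8a, C8b, C8g, C9, Cfb, Cfi, Hc, Mbl1, Mbl2, Masp1, Masp2 and Serping1) and 21 to coagulation (F2, F5, F7, F9, F10, F11, F12, F13b, Fga, Fgb, Fgg, Serpinc1, Serpind1, Serpinf2, Plg, Kng1, Klkb1, Proc, Pros1, Proz and Cpb2). Genes had to average 1 RPKM or more to be tested, which 10204 genes did and among them all 37 members. RPKM is the number of reads of a gene scaled to its length and to the total reads of the library.

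Livers of ICR mice aged 10 weeks were sequenced in 6 groups of 3 libraries, 18 in all, and by the study's methods the mice were male. Con mice had a regular diet and saline, and HS mice were fed a high-fat diet, begun at 3 weeks, with 1 dose of streptozotocin (STZ, a toxin of the insulin-making beta cells) of 85 mg/kg at 5 weeks. A10-FMT and Con-FMT mice had the HS treatment and, from 5 to 7 weeks of age, gut microbiota from donors dosed with 10 mg/kg alginate oligosaccharide (AOS, short sugar chains from seaweed alginate) or from control donors; the small-intestine content of the donors had been pooled. The groups A10 (AOS, 10 mg/kg) and HS+A10 (the HS treatment and AOS, 10 mg/kg) are known here from their labels alone. By these descriptions HS, A10-FMT and Con-FMT share the diet and the toxin. HS+A10 shares them only as far as its label is read as the HS treatment. Every recipient of microbiota also carries the HS treatment, so that no group received microbiota on a regular diet. The labels do not say that the libraries came from separate mice, and the p-values below measure only the spread between these libraries, which may be technical.

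Complement is a chain of plasma proteins that tags and lyses microbes. Mannose-binding lectins and their proteases (Mbl1, Mbl2, Masp1, Masp2) start 1 of its routes. The convertases that C4b, C3 and factor B (Cfb) help to build split C3 and C5 (Hc), and C5 to C9 build the pore. In coagulation, vitamin K-dependent proteases (F2, F7, F9, F10), the contact system (F11, F12, Klkb1, Kng1) and the cofactor F5 lead to thrombin, which turns fibrinogen, a hexamer of paired Fga, Fgb and Fgg chains, into fibrin. Protein C (Proc) with protein S (Pros1), antithrombin (Serpinc1) and heparin cofactor II (Serpind1) hold the cascade back, and plasmin (from Plg) dissolves the clot. Fibrinogen, C3, Cfb, C4b and Hc are among the hepatocyte genes known to respond to interleukin-6 and other signals of the acute phase.

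Of the 37 members, 12 lie within 200 kb of another member. The 3 fibrinogen genes form 1 cluster on chromosome 3 of GRCm38, in the order Fgg, Fga, Fgb from 83007724 to 83049863, with gaps of 11026 and 6513 bases and no other protein-coding gene between them. F7, F10 and Proz lie side by side on chromosome 8 (13026034 to 13076026), F11 and Klkb1 are neighbours on the same chromosome (45241174 to 45294859), and C8b and C8a are neighbours on chromosome 4 (104766317 to 104876398). C4b and Cfb lie 112.5 kb apart on chromosome 17, with 5 protein-coding genes between them.

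The promoters of the fibrinogen chains and of the F11 and Klkb1 pair are shown because these neighbours were called in the same direction in at least 1 comparison below, the 3 chains in HS+A10 vs A10 and A10-FMT vs Con-FMT, and F11 with Klkb1 in A10-FMT vs HS alone. Each window holds the 250 bases before and the 50 bases after the annotated start (RefSeq, GRCm38.p6), which the table gives for 29 of the 37 members, C8g with 2 windows. Capitals mark matches on either strand to the letters TTGNNNAA (C/EBP) and CTGGGAA (the interleukin-6 response element of acute-phase genes).
Fga, chr3:83025903-83026202, plus strand: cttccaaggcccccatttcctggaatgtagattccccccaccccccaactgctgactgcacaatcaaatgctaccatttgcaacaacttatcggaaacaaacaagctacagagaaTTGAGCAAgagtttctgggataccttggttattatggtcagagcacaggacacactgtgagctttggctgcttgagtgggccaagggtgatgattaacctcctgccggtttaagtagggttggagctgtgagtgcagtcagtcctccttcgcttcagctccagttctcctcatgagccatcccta
Fgb, chr3:83049814-83050113, minus strand: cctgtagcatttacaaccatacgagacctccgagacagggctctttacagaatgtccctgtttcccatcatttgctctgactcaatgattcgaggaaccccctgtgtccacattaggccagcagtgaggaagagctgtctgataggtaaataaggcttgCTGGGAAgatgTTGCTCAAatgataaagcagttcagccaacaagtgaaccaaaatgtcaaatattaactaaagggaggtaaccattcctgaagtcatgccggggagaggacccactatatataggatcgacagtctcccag
Fgg, chr3:83007474-83007773, plus strand: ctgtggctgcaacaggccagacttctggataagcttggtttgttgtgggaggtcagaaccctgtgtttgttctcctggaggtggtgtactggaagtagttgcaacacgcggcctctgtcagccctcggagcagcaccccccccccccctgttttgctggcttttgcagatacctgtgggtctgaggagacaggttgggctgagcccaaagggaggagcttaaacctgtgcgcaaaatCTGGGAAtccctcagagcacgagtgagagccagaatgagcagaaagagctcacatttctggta
F11, chr8:45261982-45262281, minus strand: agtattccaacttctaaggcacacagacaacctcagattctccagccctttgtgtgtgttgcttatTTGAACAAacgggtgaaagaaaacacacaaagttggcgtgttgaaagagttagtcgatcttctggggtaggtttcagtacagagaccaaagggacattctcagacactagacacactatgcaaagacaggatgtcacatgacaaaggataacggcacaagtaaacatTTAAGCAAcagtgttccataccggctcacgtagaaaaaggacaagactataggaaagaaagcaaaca
Klkb1, chr8:45294786-45295085, minus strand: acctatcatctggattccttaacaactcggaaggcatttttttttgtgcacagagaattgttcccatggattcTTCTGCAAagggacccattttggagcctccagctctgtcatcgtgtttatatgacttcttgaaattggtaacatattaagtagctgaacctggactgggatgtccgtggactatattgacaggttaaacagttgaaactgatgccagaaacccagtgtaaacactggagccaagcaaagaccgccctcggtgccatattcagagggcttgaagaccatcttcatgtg

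Fga and Fgb each held 1 match to the C/EBP letters, 135 and 80 bases before the start. The interleukin-6 letters were found in Fgb, 91 bases before the start, and in Fgg, 13 bases before it. The F11 window held 2 C/EBP matches and the Klkb1 window 1. No marked match overlapped another in these windows. Of all 32851 promoter windows, 36.7% held the C/EBP letters and 11.1% the interleukin-6 letters, against 5 and 2 of the 12 complement windows and 12 and 3 of the 18 coagulation windows. A further search for TTCNNNGAA (STAT3) found it in 8.3% of all windows, and TATAAA was in 13.6%. In the fibrinogen windows the STAT3 letters occurred in Fga and Fgb. A match describes the letters only.

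The number of reads is unknown. Steps between low values put depth at 0.959 to 1.04 times the mean over the 18 libraries. That estimate used only values close to the lowest of each gene, so it cannot show larger differences in depth. Hepatocyte markers such as Alb were present in every library, with 47988 to 73681 summed RPKM over 9 of 10 listed genes, 6.52% to 9.83% of the summed RPKM of a library. In group Con, replicate 3 lay between the other 2 libraries for 97.9% of the 140 genes in which those differed at least 2-fold, and A10 replicate 3 did so for 95.6% of 135 genes, while in the other 16 libraries the share was 4.35% to 74.6%. Calls of HS vs Con and HS+A10 vs A10 without both libraries are given after those comparisons. Con-FMT replicate 3 held pancreatic acinar mRNAs at 24822 summed RPKM, 3.54% of its total, against 14.2 to 50.7 RPKM in the other 17. Calls rest on limma and a Benjamini-Hochberg adjusted p below 0.05 over the 10204 genes, and each log2 difference below is a difference in mean log2(RPKM + 1). The exact permutation test of 3 libraries against 3, which cannot go below p = 0.1, calls nothing by itself. In these bulk samples, fewer hepatocytes and less mRNA per hepatocyte cannot be told apart.

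The mRNAs spanned a wide range of levels. On the RPKM scale, which is per length, fibrinogen stood highest, with means over the 18 libraries of 3019 RPKM for Fgb, 2594 for Fgg and 2022 for Fga, ranks 29, 34 and 43 among all genes of the table. C3, the central complement protein, followed at 1888 RPKM, then antithrombin Serpinc1 at 1183 and the kininogen Kng1 at 1127 RPKM. The neighbours Serpinc1 and Kng1 in this order overlapped within their spread over the group means (SD 159 and 84.5 RPKM). The lowest were F11 at 47.0, F7 at 45.3, Masp1 at 36.8 and Pros1 at 14.0 RPKM. Group means of Serpind1, Masp2 and Proz differed by at most 1.14-fold, whereas those of C6, Hc, Fga and Fgg differed by 2.42, 2.30, 2.10 and 2.04-fold. Of the 37 genes, 24 were called in at least 1 comparison, 9 of 16 complement and 15 of 21 coagulation genes, where 56.1% of all tested genes were.

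**Figure D1:**
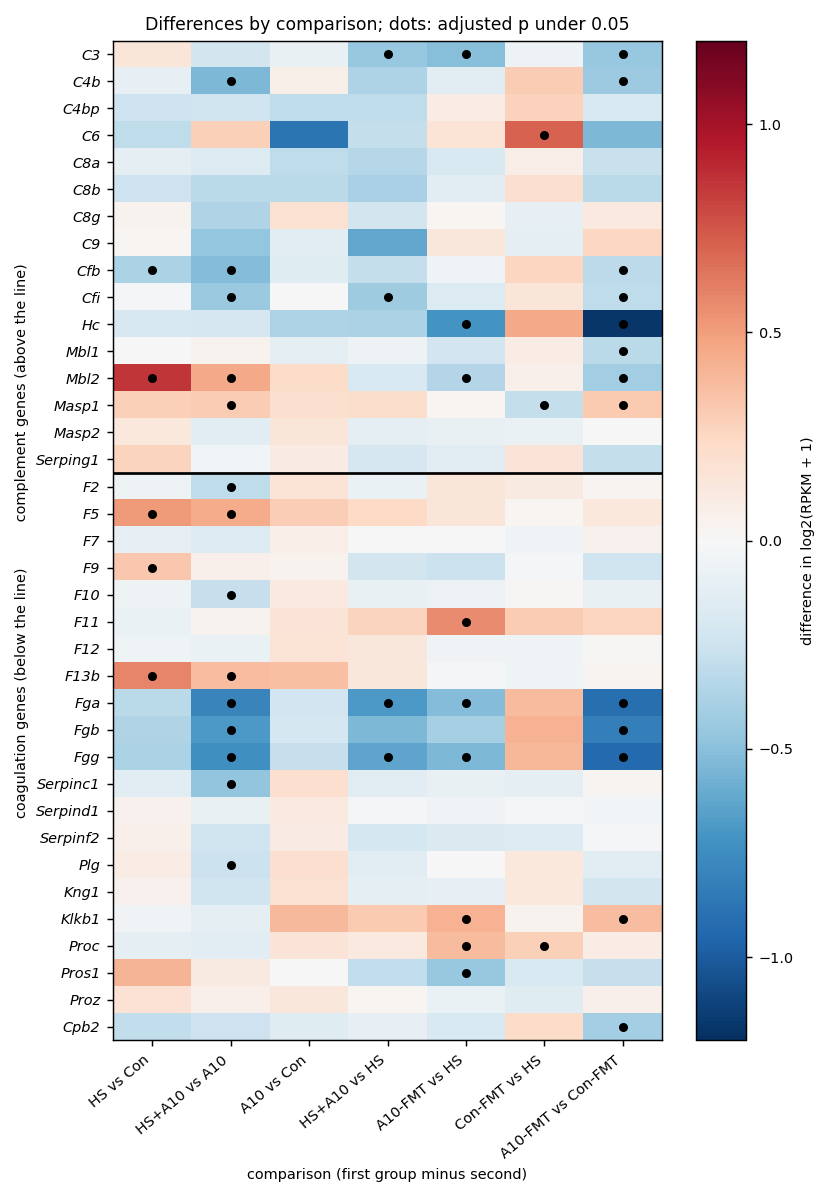
Difference in mean log2(RPKM + 1), first group minus second, for each of the 37 genes (rows; complement above the line, coagulation below) in 7 comparisons (columns), with a dot where the adjusted p was under 0.05. The 3 fibrinogen rows are blue wherever HS+A10 or A10-FMT is the first group, and Mbl2 has the darkest red cell of the complement genes in HS vs Con (0.86).

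The first question was how these mRNAs differed with diet and toxin, and 2 comparisons without a shared library bear on it: HS against Con, and HS+A10 against A10. The groups of the latter also differed in Dbp, a time-of-day gene described below, whose part was not tested. In HS vs Con 4 members were called higher (Mbl2, F13b, F5, F9) and Cfb was called lower, 13.5% of 37, where 17.7% of all tested genes were called (15.9% higher, 1.87% lower). In HS+A10 vs A10 the same Mbl2, F13b and F5 were called higher together with Masp1, and 10 members were called lower, 37.8% of 37 against 20.9% of all tested genes (13.6% higher, 7.28% lower). Those 10 were the 3 fibrinogen chains, C4b, Cfb, Cfi, antithrombin, F2, F10 and Plg. The median over all tested genes was 0.14 on the log2 scale in HS vs Con, and relative to it the split turns: with every library scaled to the same median, Mbl2 and F13b were called higher and Cfb, Fgg, Serpinc1, Proc and Cpb2 lower, where 3.9% of all tested genes passed upwards and 4.76% downwards. In HS+A10 vs A10 that scaling gave 4 members higher and 12 lower, where 12.2% and 11.3% of all tested genes were. Without overlap between the groups, 8 members lay above and 2 below in HS vs Con (32.6% and 4.17% of all tested genes), and 5 above and 18 below in HS+A10 vs A10 (26.9% and 16.1%).

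Mbl2, a mannose-binding lectin that starts the lectin pathway, showed the clearest separation. Its libraries held 350, 353 and 358 RPKM in Con and 637, 645 and 646 RPKM in HS, and in A10 and HS+A10 they held 399, 426 and 415 against 601, 595 and 508 RPKM. Neither pair of groups overlapped. The log2 difference was 0.86 (SE 0.08; adjusted p = 2.89e-05, limma) in HS vs Con and 0.45 (SE 0.08; adjusted p = 0.00161, limma) in HS+A10 vs A10, and both calls were kept without each library in turn. Without Con replicate 3 and A10 replicate 3 the values were 0.87 and 0.46 (adjusted p = 0.000937 and 0.0144, limma). Mbl1, the paralogous lectin, stayed at 190 to 222 RPKM in Con and 188 to 218 RPKM in HS (log2 difference -0.01, 95% interval -0.22 to 0.21). The ratio of Mbl2 to Mbl1 was 1.61 to 1.85 in the Con libraries and 2.92 to 3.43 in HS. Masp1, a protease of this pathway, had a log2 difference of 0.28 in HS vs Con (adjusted p = 0.0518, limma) and 0.30 in HS+A10 vs A10 (adjusted p = 0.0349, limma), the latter call being lost without 4 of the 6 libraries in turn.

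Cfb, the protease of the alternative C3 convertase, moved the other way. Con libraries held 624, 530 and 616 RPKM and HS libraries 455, 429 and 474 RPKM, and A10 libraries held 531, 543 and 520 against 345, 397 and 372 RPKM in HS+A10. All HS libraries lay below all Con libraries, and the same held with AOS. The log2 differences were -0.38 (SE 0.10; adjusted p = 0.0168, limma) and -0.52 (SE 0.10; adjusted p = 0.0018, limma). The HS vs Con call was lost without HS replicate 2, Con replicate 1 or Con replicate 3 (adjusted p up to 0.0655, limma), while the call with AOS was kept without each library. Overlapping annotation of the gene model Gm20547 on the same strand leaves the source of Cfb reads uncertain.

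C4b, another convertase component, and Cfi, the protease that cuts C3b and C4b, were, of these 2 comparisons, called lower in HS+A10 vs A10 alone. C4b held 326, 249 and 306 RPKM in Con, 274, 272 and 273 in HS, 355, 276 and 292 in A10 and 215, 213 and 204 in HS+A10. Cfi held 318, 295 and 323 RPKM in Con, 295, 310 and 316 in HS, 299, 324 and 311 in A10 and 221, 222 and 243 in HS+A10. For both, HS+A10 was the lowest group without overlap with any of the other 3. The log2 differences against A10 were -0.54 for C4b (adjusted p = 0.0106, limma) and -0.45 for Cfi (adjusted p = 0.00167, limma). Reads of C4b can be split with its near-identical copy C4a, and the C4b call was lost without A10 replicate 1 (adjusted p = 0.0516, limma).

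Fibrinogen was lower in HS+A10 than in A10 for all 3 chains. Fga held 3066, 2035 and 2644 RPKM in Con, 2349, 1927 and 1847 in HS, 2331, 2035 and 2168 in A10, and 1100, 1363 and 1319 in HS+A10. Fgb held 4587, 2949 and 3885 in Con, 3605, 2727 and 2504 in HS, 3525, 2952 and 3263 in A10, and 1729, 2228 and 2094 in HS+A10. Con and HS overlapped for both chains, while every HS+A10 library lay below every A10 library. Fgg followed with 3951, 2770 and 3395 RPKM in Con, 3084, 2446 and 2241 in HS, 3009, 2562 and 2715 in A10, and 1457, 1859 and 1676 in HS+A10. The log2 differences in HS+A10 vs A10 were -0.79 for Fga, -0.69 for Fgb and -0.73 for Fgg (adjusted p = 0.00232, 0.00866 and 0.00325, limma), and each was called without each library in turn. In HS vs Con they were -0.33, -0.36 and -0.38 (adjusted p = 0.147, 0.134 and 0.0887, limma), and after scaling each library to the same median the Fgg difference of -0.57 was called (adjusted p = 0.0311, limma).

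F13b, the carrier subunit of the clot-linking factor XIII, rose in both comparisons. Its libraries held 60.0, 81.2 and 70.4 RPKM in Con and 99.1, 109 and 110 RPKM in HS, and 91.0, 88.4 and 90.4 in A10 against 111, 123 and 115 RPKM in HS+A10. The groups overlapped in neither comparison. The log2 differences were 0.59 (SE 0.10; adjusted p = 0.00163, limma) and 0.37 (SE 0.10; adjusted p = 0.0164, limma), the latter lost without Con replicate 3 and A10 replicate 3 (adjusted p = 0.0654, limma). F5, the cofactor of factor X, ranged from 47.4 to 64.4 RPKM in Con and 67.2 to 91.8 in HS, a log2 difference of 0.51 (adjusted p = 0.0135, limma), and from 66.9 to 69.7 in A10 and 85.4 to 97.3 in HS+A10, a log2 difference of 0.45 (adjusted p = 0.0185, limma). F5 lost both calls without these 2 libraries (adjusted p = 0.0592 and 0.0612, limma). F9, factor IX, was called in HS vs Con alone (log2 difference 0.32, adjusted p = 0.035, limma), a call lost after median scaling (0.14, adjusted p = 0.406, limma) and without any of 5 libraries in turn, and its value in HS+A10 vs A10 was 0.06.

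Antithrombin (Serpinc1), the main inhibitor of thrombin and factor Xa, fell with HS treatment under AOS. It held 1132, 1390 and 1300 RPKM in Con, 1087, 1114 and 1276 in HS, 1580, 1413 and 1388 in A10 and 1011, 1120 and 1022 in HS+A10. HS+A10 and A10 did not overlap, whereas HS and Con did. The log2 difference was -0.47 (SE 0.09; adjusted p = 0.00245, limma) in HS+A10 vs A10 and -0.13 (adjusted p = 0.32, limma) in HS vs Con. Prothrombin (F2), factor X (F10) and plasminogen (Plg) had log2 differences of -0.30, -0.27 and -0.25 in HS+A10 vs A10 (adjusted p = 0.0255, 0.0257 and 0.0384, limma), each lost without at least 4 of the 6 libraries in turn. The Zbtb37 gene overlaps Serpinc1, and Slc22a3 overlaps Plg, on the opposite strand.

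Whether AOS altered the effect of HS was tested by the interaction. No member was called in limma, although 9 had an unadjusted p under 0.05 (12.9% of all tested genes did), and the lowest adjusted p was 0.17 (Cfi, -0.42). Of all tested genes 0.0098% were called, which is 1 gene. That gene is among the 17 hepatocyte regulators described below, a list that holds Dbp and whose largest interaction value was 3.92. Dbp was high in HS+A10 alone of the groups of this test, and its part was not tested. The fibrinogen interaction values were -0.47 for Fga (95% interval -0.93 to 0.00), -0.33 for Fgb and -0.36 for Fgg, so a member called with AOS and not without it was not shown to differ. Leaving out Con replicate 3 and A10 replicate 3, 2 members were called in HS vs Con (Mbl2 and F13b), with 6.83% of all genes called, while Cfb, F5 and F9 were lost (adjusted p = 0.0875, 0.0592 and 0.109, limma). In HS+A10 vs A10 9 members were then called, with 11.4% of all genes called: Mbl2 higher, and C4b (-0.57), Cfb (-0.53), Cfi (-0.45), F2 (-0.35), Fga (-0.79), Fgb (-0.69), Fgg (-0.75) and Serpinc1 (-0.51) lower, with adjusted p = 0.0130 to 0.0499 in limma. The calls of Masp1, F5, F10, F13b and Plg were lost there (adjusted p = 0.0612 to 0.111, limma).

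**Figure D2:**
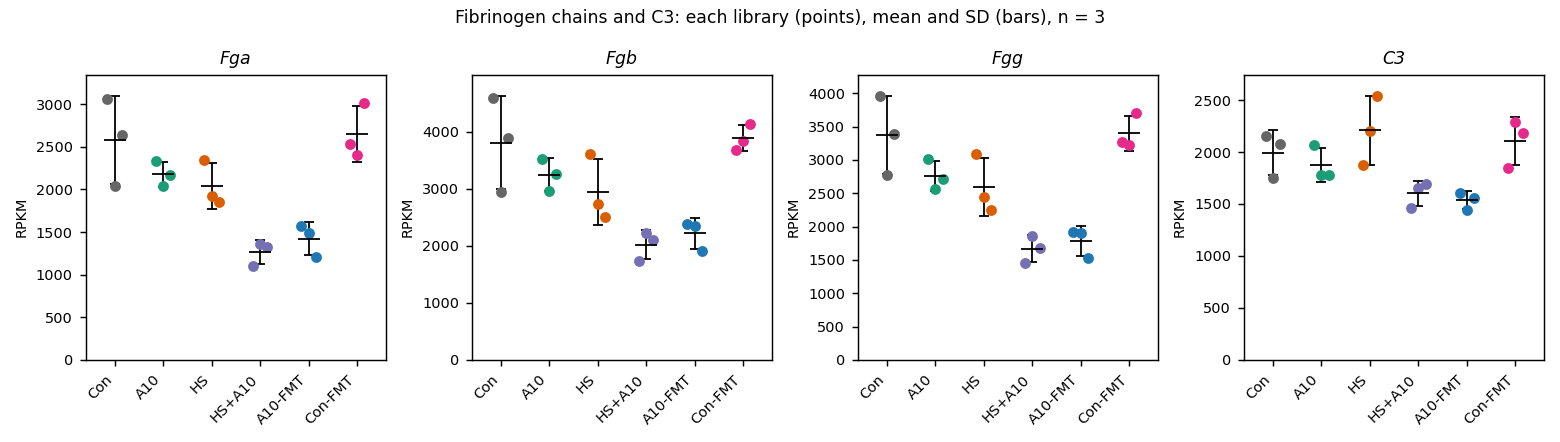
RPKM of Fga, Fgb, Fgg and C3 in each library (points) by group, with group mean and SD (bars, n = 3). For the 3 fibrinogen chains all A10-FMT libraries lie below and all Con-FMT libraries above the HS libraries, and HS+A10 has the lowest mean, 1261 RPKM for Fga.

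AOS alone and AOS within HS were compared next. In A10 vs Con no member was called in limma, although 10 had an unadjusted p under 0.05 (13.9% of all tested genes did), and 0.0686% of all tested genes were called. Of the members, 9 lay wholly above and 4 wholly below Con, against 19.6% and 5.27% of all tested genes. The smallest adjusted p among members was 0.131, for prekallikrein (Klkb1, log2 difference 0.39), with libraries at 40.4, 51.4 and 47.5 RPKM in Con and 61.3, 60.3 and 61.5 in A10. In HS+A10 vs HS, 4 members were called lower and none higher, 10.8% of 37 against 7.32% of all tested genes (2.95% higher, 4.37% lower): Cfi (-0.43), Fga (-0.69), Fgg (-0.63) and C3 (-0.45), with adjusted p = 0.00863, 0.0173, 0.0228 and 0.0401 in limma. C3 held 1878, 2206 and 2542 RPKM in HS and 1463, 1657 and 1689 in HS+A10, without overlap. Of these calls, the one of Cfi was kept without each library in turn, Fga was lost without HS+A10 replicate 1 (adjusted p = 0.0896, limma), Fgg without that library or HS replicate 2, and C3 without any of 5 libraries. In this comparison 16 members lay wholly below and 3 wholly above the HS libraries, against 15.7% and 11.6% of all tested genes. After median scaling Cfi, Fga and Fgg were called lower and Klkb1 higher, where 5.67% of all tested genes were called higher and 3.49% lower.

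The recipient groups were each compared with HS, and these comparisons share the HS libraries. In A10-FMT vs HS, 9 members were called, 24.3% of 37 where 23.1% of all tested genes were (2.09% higher, 21% lower). C3, Hc, Mbl2, Fga, Fgg and Pros1 were called lower, and F11, Klkb1 and Proc were called higher. In Con-FMT vs HS, 3 members were called, C6 and Proc higher and Masp1 lower, 8.11% of 37 where 23.6% of all tested genes were (4.61% higher, 19% lower). The median over all tested genes was itself -0.16 in the former and -0.12 in the latter, and relative to it the split changes: after scaling each library to the same median, F2, F5, F11, Klkb1 and Proc were called higher in A10-FMT and no member lower, whereas 9 members were called higher in Con-FMT, among them the 3 fibrinogen chains (0.49 to 0.53), and no member lower. With that scaling the share of all tested genes called higher was 6.26% and the share called lower 5.06% against HS for A10-FMT, while for Con-FMT these shares were 8.41% and 12.2%. Wholly above the HS libraries lay 2 members and wholly below them 10 in A10-FMT, against 4.59% and 32.8% of all tested genes, and for Con-FMT the counts were 6 and 2, against 7.11% and 27.9%.

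C3 held 1609, 1447 and 1556 RPKM in the A10-FMT libraries and 1850, 2288 and 2186 in Con-FMT. Every A10-FMT library lay below every HS library, and Con-FMT overlapped with HS. The log2 differences from HS were -0.51 (SE 0.12; adjusted p = 0.00996, limma) and -0.06 (95% interval -0.33 to 0.20). The C3 call in A10-FMT was kept without each library in turn, and after median scaling its value was -0.32 (adjusted p = 0.128, limma). Hc, complement C5, held 97.2, 74.8 and 145 RPKM in HS, 72.7, 50.4 and 63.5 in A10-FMT, whereas Con-FMT had 116, 125 and 188. A10-FMT lay below HS without overlap (log2 difference -0.72, adjusted p = 0.0216, limma), a call that was lost without HS replicate 3, A10-FMT replicate 2 or A10-FMT replicate 3. Mbl2 held 521, 482 and 506 RPKM in A10-FMT, below all HS and above all Con libraries (log2 difference from HS -0.35, adjusted p = 0.00871, limma), and 698, 717 and 601 in Con-FMT. The median-scaled Mbl2 difference from HS was -0.16 (adjusted p = 0.29, limma).

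Fga held 1571, 1488 and 1205 RPKM in A10-FMT libraries and 2531, 2403 and 3017 in Con-FMT. Fgb held 2384, 2352 and 1908 in A10-FMT, and Con-FMT had 3677, 3842 and 4132. Fgg held 1917, 1903 and 1521 in A10-FMT, and Con-FMT had 3270, 3217 and 3705. For all 3 chains the HS libraries lay between the recipient groups without overlap. Against HS the log2 differences were -0.52, -0.40 and -0.54 in A10-FMT (adjusted p = 0.0251, 0.0901 and 0.0203, limma) and 0.38, 0.42 and 0.40 in Con-FMT (adjusted p = 0.0894, 0.0826 and 0.065, limma). In A10-FMT the Fga call was lost without any of 3 libraries and the Fgg call without HS replicate 1 or A10-FMT replicate 3. Both calls were also lost after median scaling.

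F11, factor XI, and its neighbour Klkb1, prekallikrein, are contact-system proteases. Klkb1 held 42.9, 42.3 and 49.7 RPKM in HS, 63.7, 60.0 and 56.7 in A10-FMT, against 49.1, 42.9 and 46.7 in Con-FMT. HS+A10 libraries held 53.1, 61.3 and 54.4 RPKM. All A10-FMT libraries lay above the HS libraries, and the log2 difference was 0.41 (SE 0.09; adjusted p = 0.00754, limma), called without each library and after median scaling (0.60). F11 ranged from 33.1 to 50.2 RPKM in HS and from 48.1 to 66.2 in A10-FMT, which overlapped, with a log2 difference of 0.57 (SE 0.14; adjusted p = 0.0112, limma) that was lost without HS replicate 2 (adjusted p = 0.0534, limma). The gene model Gm45753 overlaps Klkb1 on the same strand. Proc, the zymogen of the anticoagulant protein C, ranged from 263 to 265 RPKM in HS, from 311 to 367 in A10-FMT, with 310 to 333 in Con-FMT, with log2 differences of 0.38 and 0.29 (adjusted p = 0.0146 and 0.0463, limma). The former call was lost without A10-FMT replicate 2 (adjusted p = 0.0541, limma), the latter without each of the 6 libraries. Protein S (Pros1) differed by -0.46 in A10-FMT (adjusted p = 0.0322, limma), a call lost without any of 3 libraries in turn. C6 differed by 0.70 in Con-FMT (adjusted p = 0.0345, limma), and lost its call without any of 5 libraries. All 3 calls of Con-FMT vs HS were lost without Con-FMT replicate 3, the library with pancreatic mRNAs (adjusted p = 0.0507 to 0.0639, limma), and equally without HS replicate 2 or Con-FMT replicate 2.

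**Figure D3:**
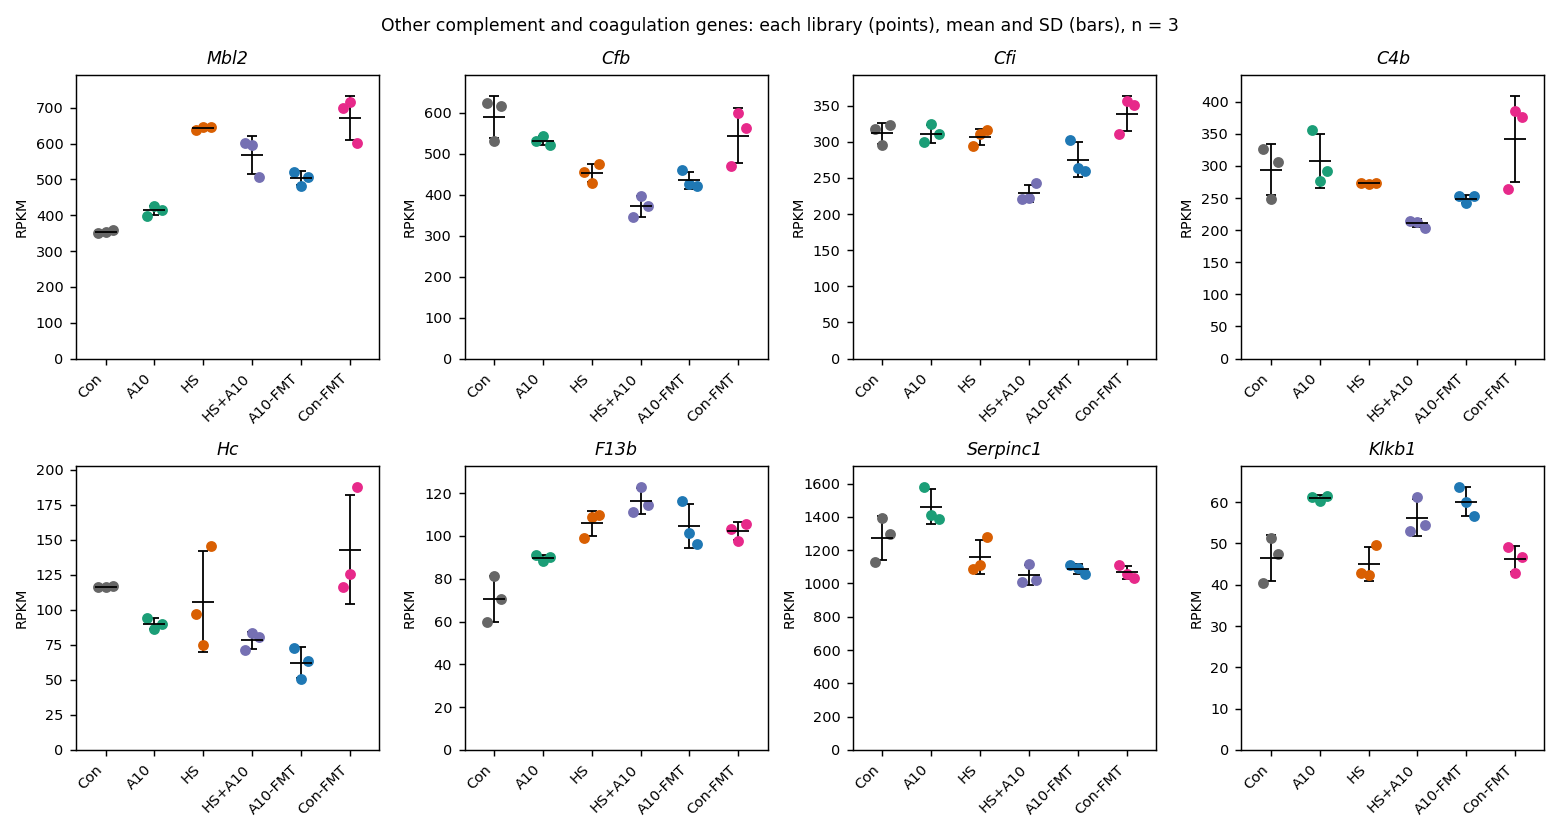
RPKM of 8 further genes in each library (points) by group, with group mean and SD (bars, n = 3). Mbl2 is at 350 to 358 RPKM in Con and at 637 to 646 in HS, Cfb and Serpinc1 have their lowest means in HS+A10, and Klkb1 is higher in A10, HS+A10 and A10-FMT than in Con, HS and Con-FMT.

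The donor type was compared directly in A10-FMT vs Con-FMT, where diet, toxin and transfer were shared. The content of each donor group had been pooled, so the p-values here measure no spread between donors. Here 13 members were called, 35.1% of 37 against 18.8% of all tested genes (6.72% higher, 12% lower). Lower in A10-FMT were the 3 fibrinogen chains, C3, C4b, Cfb, Cfi, Hc, Mbl1, Mbl2 and Cpb2, the plasma carboxypeptidase that slows fibrin lysis, and higher were Klkb1 and Masp1. The largest differences were those of Hc (-1.17, SE 0.20; adjusted p = 0.00132, limma), Fgg (-0.94, SE 0.15; adjusted p = 0.000724, limma), Fga (-0.90, SE 0.15; adjusted p = 0.00115, limma) and Fgb (-0.82, SE 0.17; adjusted p = 0.00356, limma), which are 0.444, 0.522, 0.536 and 0.568 of the Con-FMT level. Mbl2 (-0.41) and these 4 were called without each library in turn. The other 8 calls were each lost without at least 1 library, all 8 without Con-FMT replicate 2, and 6 of them (C3, C4b, Cfb, Cfi, Cpb2 and Masp1) without Con-FMT replicate 3 (adjusted p = 0.0548 to 0.113, limma). After median scaling Hc, Mbl2, the fibrinogen chains, Klkb1 and Masp1 were called, 7 in all, where 12.8% of all tested genes were called higher and 9.39% lower. Without overlap, 15 members lay below and 2 above the Con-FMT libraries, against 19.4% and 12.1% of all tested genes.

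**Figure D4:**
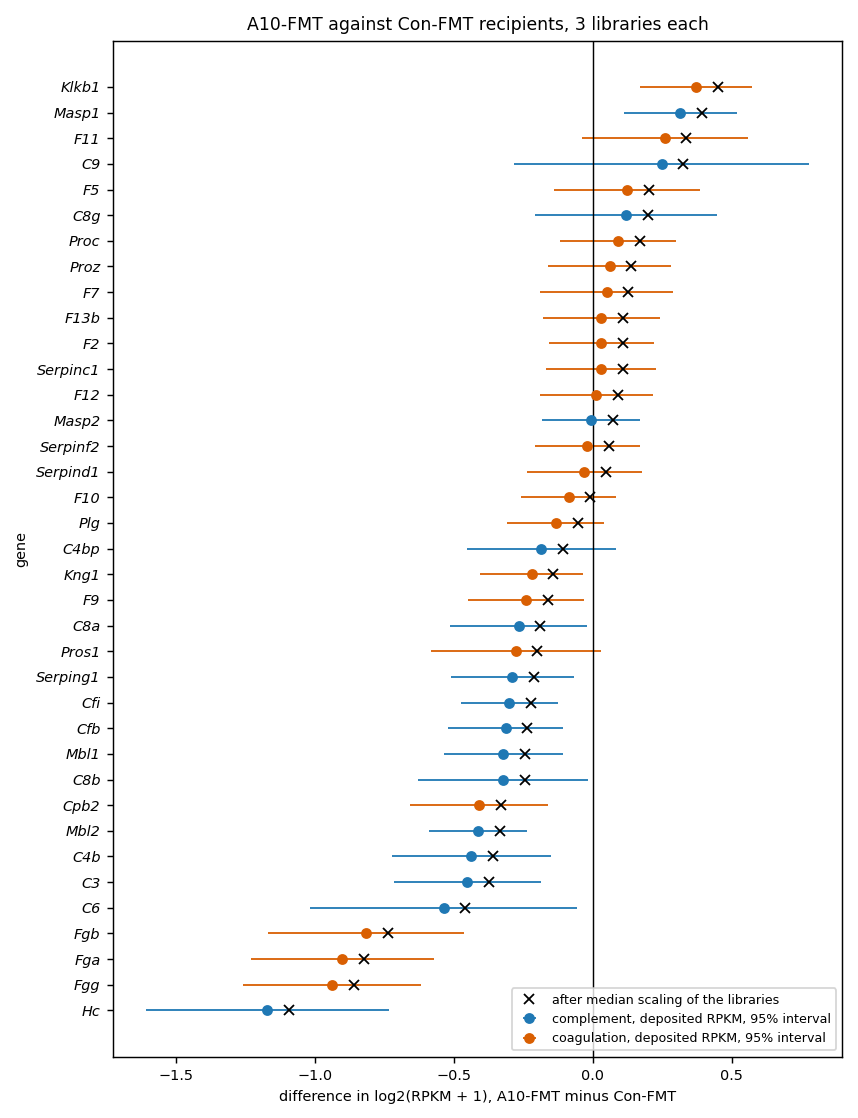
Difference in mean log2(RPKM + 1) between A10-FMT and Con-FMT for each of the 37 genes (points with 95% intervals from limma, blue complement, orange coagulation; crosses, after median scaling). Hc (-1.17) is the lowest of the complement genes, which reach up to 0.31. The fibrinogen chains (-0.94 to -0.82) lie apart from the other coagulation genes, which fall between -0.41 and 0.37.

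Counts and medians of the complement and coagulation genes are set side by side here, with no test between the lists. In A10-FMT vs Con-FMT, 8 of 16 complement genes were called (7 lower), with a median log2 difference of -0.31, against 5 of 21 coagulation genes (4 lower), with a median of -0.02, and the median over all tested genes was -0.03. Of the 4 coagulation genes called lower, 3 were fibrinogen chains. In HS+A10 vs A10 the medians were -0.21 for complement and -0.17 for coagulation, with 5 of 16 and 9 of 21 called, against 0.04 for all tested genes. In HS vs Con they were -0.01 and -0.05 with 2 of 16 and 3 of 21 called, against 0.14 for all tested genes, and in HS+A10 vs HS they were -0.30 and -0.09. In A10 vs Con, with no call, the medians were -0.10 for complement (10 of 16 negative) and 0.13 for coagulation (17 of 21 positive), against 0.07 for all tested genes. Against HS, the medians were -0.13 and -0.07 for A10-FMT (3 of 16 and 6 of 21 called) and 0.11 and 0.03 for Con-FMT (2 of 16 and 1 of 21 called). The shares of all tested genes called stand with each comparison above, 18.8% for A10-FMT vs Con-FMT. By role, none of the 7 vitamin K-dependent genes was called in A10-FMT vs Con-FMT, and 1 of the 4 contact-system genes was. All 3 convertase genes among the members (C3, C4b and Cfb) were called. C2, a convertase protein that is not a member, had means of 38.1 RPKM in A10-FMT and 40.1 in Con-FMT. Terminal complement had 1 call of 6 in that comparison, Hc. After median scaling none of the 3 convertase genes was called, and the complement count was 3 (1 higher, 2 lower) in place of 8, while the fibrinogen chains gave 3 of 3.

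Summed over the 3 chains, fibrinogen mRNA was 7755 to 11604 RPKM in Con, 7549 to 8865 in A10, 6592 to 9039 in HS, 4285 to 5450 in HS+A10, 4634 to 5871 in A10-FMT, with 9462 to 10854 in Con-FMT. The HS+A10 and A10-FMT libraries overlapped with each other and with no library of the other 4 groups. The 16 complement genes summed to 5512 to 6690 RPKM in Con, 5781 to 6128 in A10, 6259 to 6949 in HS, 4941 to 5404 in HS+A10, 5427 to 5688 in A10-FMT, with 6353 to 7425 in Con-FMT. The 18 other coagulation genes moved least, from 5611 to 7227 RPKM over all libraries. Ratios between the chains varied less than their levels. Over the 18 libraries the ratio of Fgb to Fga was 1.36 to 1.63, that of Fgg to Fga 1.21 to 1.36 and that of Fgb to Fgg 1.06 to 1.25. They still shifted in part: Fgb to Fga was 1.57 to 1.63 in HS+A10, above 1.45 to 1.51 in A10. Fgb to Fgg was 1.24 to 1.25 in A10-FMT, above 1.12 to 1.19 in Con-FMT. The ratio of Fgg to Fga overlapped in both of these comparisons.

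**Figure D5:**
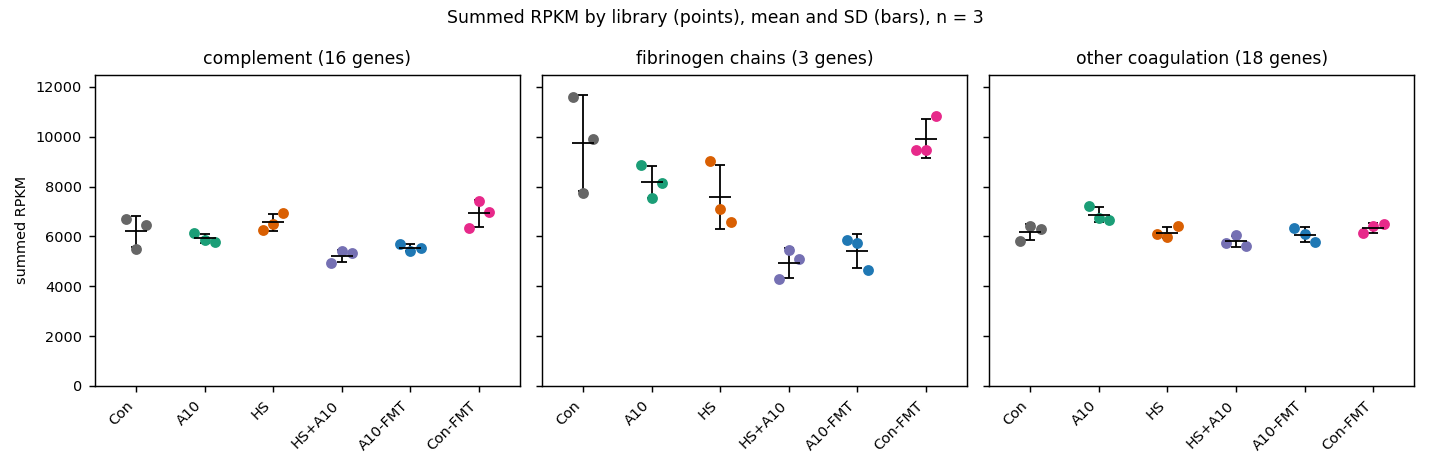
Summed RPKM of the 16 complement genes, the 3 fibrinogen chains and the 18 other coagulation genes in each library (points), with group mean and SD (bars, n = 3), on 1 axis that starts at 0. Fibrinogen spans 4285 to 11604 RPKM, whereas the other coagulation genes stay between 5611 and 7227 RPKM.

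Values that moved with these results are given here, and their part in them was not tested. Dbp, a transcription factor whose mRNA cycles with the time of day, had group means of 0.64, 1.85 and 1.73 RPKM in Con, A10 and HS and of 65.8, 77.9 and 53.4 RPKM in HS+A10, A10-FMT and Con-FMT. Dbp was thus low in both groups of HS vs Con and A10 vs Con, and high in both groups of A10-FMT vs Con-FMT. In HS+A10 vs A10, HS+A10 vs HS and both comparisons of recipients with HS, it was high in the first group alone. Among the groups of the interaction it was high in HS+A10 alone. Red cell markers (7 genes) summed to 4214 to 12047 RPKM in HS and to 1535 to 2958 in Con, 2873 to 3954 in HS+A10, 1602 to 2544 in A10-FMT, while Con-FMT had 1194 to 5417 RPKM and overlapped with HS. Kupffer cell markers (10 genes) summed to 72.8 to 122 RPKM in HS, 49.7 to 62.7 in A10-FMT, with 57.5 to 108 in Con-FMT, and 5 of the 9 tested were called lower in A10-FMT vs HS (21% of all tested genes were), of which median scaling left 1. Liver endothelial markers (9 genes) summed to 90.9 to 115 RPKM in HS+A10 and to 51.4 to 82.3 in the other libraries, with 7 of 9 called higher in HS+A10 vs A10 (13.6% of all tested genes were), also after median scaling, and 3 of 9 in HS+A10 vs HS. Stellate cell markers (8 genes) summed to 84.0 to 94.6 RPKM in Con and 130 to 203 in HS, with 3 called higher, 2 after median scaling.

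Other genes of the same pathways were counted next. In HS vs Con 5 of 27 tested further complement genes passed the test upwards and 2 downwards, in A10-FMT vs HS 0 upwards and 7 downwards, and in Con-FMT vs HS 2 each way, which is 25.9%, 25.9% and 14.8% against 17.7%, 23.1% and 23.6% of all tested genes. Median scaling turned these splits to 2 upwards and 4 downwards, 3 and 2, and 6 and 2. The collectins Colec11 and Colec10, which like mannose-binding lectin start the lectin pathway, had log2 differences of 1.19 and 0.82 in HS vs Con (adjusted p = 0.0011 and 0.00838, limma). C4a differed by -1.18 in HS vs Con and by 1.59 in Con-FMT vs HS (adjusted p = 0.0169 and 0.00205, limma), where reads may be split with C4b. In A10-FMT vs HS the ficolin Fcna (-1.01), the convertase inhibitor Cd55 (-0.51) and the C1q chains C1qa (-0.87) and C1qb (-0.80) were called lower (adjusted p = 0.00109, 0.00525, 0.00996 and 0.012, limma), C1qa and C1qb not after median scaling (adjusted p = 0.0683 and 0.0808, limma). C1q and ficolin A are made by macrophages, whose markers are given above.

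In HS vs Con 3 of 20 tested further coagulation genes passed the test upwards and 2 downwards, in A10-FMT vs HS 2 and 3, and in Con-FMT vs HS 3 and 2, 25% in each against 17.7%, 23.1% and 23.6% of all tested genes. After median scaling the splits were 0 and 5, 3 and 2, and 5 and 0. Tfpi2, a protease inhibitor, was called lower in all 3 (log2 differences -0.50, -0.73 and -0.46), the last not after median scaling (adjusted p = 0.0511, limma). Hrg, histidine-rich glycoprotein, was higher in HS vs Con (0.44; after median scaling 0.26, adjusted p = 0.15, limma), Serpina5, the protein C inhibitor, was higher in A10-FMT vs HS (1.07), from 0.777 to 2.73 RPKM in mean, and Thpo, the hormone of platelet production, was lower there (-0.57). Of 8 genes of the vitamin K cycle and of factor export, 3 were called higher in HS vs Con (15.9% of all tested genes were), the quinone reductase Nqo1 (0.75), the vitamin K reductase Vkorc1l1 (0.35) and the protease Furin (0.30). In A10-FMT vs HS 3 were called lower, the proprotein convertase Pcsk5 (-0.55), Mcfd2, which exports factors V and VIII (-0.40), and Nqo1 (-0.46), where 21% of all tested genes were lower. Median scaling left the calls of Nqo1 in HS vs Con and of Pcsk5 in A10-FMT vs HS, and the other 4 were lost (adjusted p = 0.0523 to 0.468, limma).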

How the data were processed

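Mouse liver RNA was sequenced in 18 libraries, and the authors deposited 1 table of gene-level RPKM values, rounded to 2 decimals. By the study's methods reads were aligned with SOAPaligner, whereas the submitters' processing notes name Bowtie 0.12.2 and mm10; the number of reads behind each deposited RPKM value, and whether strand was used, are not given in the sources used here. The study's own test takes read numbers and was not used. Groups came from the sample labels. Tests were run on log2(RPKM + 1), with a pseudocount of 1, in limma 3.58.1 (R 4.3.3) with a variance trend, 1 mean for each of 6 groups and all 18 libraries, over the 10204 genes that averaged 1 RPKM or more, with Benjamini-Hochberg adjustment and a call at an adjusted p under 0.05. There were 8 comparisons. The study's threshold was an alternative: an adjusted p no higher than 0.001 together with a log2 difference of 1 or more in size. Alternatives covered pseudocount, filter, scaling, replicate block, variance, samples in the fit and each library left out. Leaving out Con replicate 3 and A10 replicate 3 together was added after seeing the data.

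The members and lists were chosen with earlier results of these data known. All 37 members may be named; values in every library are given for the 12 with the smallest adjusted p, and ranges for the others. Of other lists, at most 4 genes a comparison are named, those with the smallest adjusted p among the called genes of HS vs Con, A10-FMT vs HS and Con-FMT vs HS. Gene symbols turned into dates (26) or repeated (3) were no members. Positions came from GENCODE M21 (GRCm38), and promoters from RefSeq. Figures were drawn in Python 3.11.15 with matplotlib 3.10.9. The fit was tested on simulated data for HS vs Con with 10204 genes: 63 of 100 genes given a change of 0.5 (log2) and 87 of 100 given a change of 1 were recovered, with 8 false calls, and 0 genes were called where none had been changed. Some genes of the lists are not reported here.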

Additional observations from a re-analysis of the deposited data

Results flagged for a closer look

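In the deposited RPKM the 3 fibrinogen chains differed between the recipient groups in direction from HS: every A10-FMT library lay below every HS library and every Con-FMT library above it. The chains were flagged by this order, which by itself places every A10-FMT library below every Con-FMT library. The p-values given here come from the same libraries, so they are no separate test of the flagged order. In A10-FMT vs Con-FMT the log2 differences were -0.90 for Fga, -0.82 for Fgb and -0.94 for Fgg (adjusted p = 0.00115, 0.00356 and 0.000724, limma). Without Con-FMT replicate 3, the library with pancreatic mRNAs, the values were -0.80, -0.77 and -0.87 (adjusted p = 0.00613, 0.0149 and 0.00391, limma). Both recipient groups share the HS libraries as reference. Of the comparisons with HS in the deposited RPKM, only those of Fga and Fgg in A10-FMT were called. After median scaling 0 of the 3 chains were called in A10-FMT vs HS, and all 3 were called higher in Con-FMT vs HS. The side of HS on which a call fell thus depended on the scaling, while the 3 calls in A10-FMT vs Con-FMT were kept. Groups of 3 libraries were too small for a test of single libraries that stand apart.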

How the results depend on the processing

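No called gene changed direction under any alternative run. Members called (5, 14, 4, 9, 3 and 13 in HS vs Con, HS+A10 vs A10, HS+A10 vs HS, A10-FMT vs HS, Con-FMT vs HS and A10-FMT vs Con-FMT) became 0 in all 6 at the study's threshold. With only the compared groups in the fit they were 2 in HS vs Con, 0 in HS+A10 vs HS, 3 in A10-FMT vs HS, 1 in Con-FMT vs HS and 5 in A10-FMT vs Con-FMT. Without a filter they were 2 in HS+A10 vs HS and 0 in Con-FMT vs HS. Median scaling gave 5 in A10-FMT vs HS, 9 in Con-FMT vs HS and 7 in A10-FMT vs Con-FMT, and quantile normalization or a sum without the 10 most abundant genes gave 8 each in the last. Without Con replicate 3 and A10 replicate 3 they were 2 in HS vs Con and 9 in HS+A10 vs A10, and, through the shared spread, 2, 8, 0 and 9 in the other 4. The cause was not tested.

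With 1 library left out, counts were 3 to 10 in HS vs Con (3 without Con 1, Con 3, HS 2 or HS 3, 9 without HS 1, 10 without Con 2), 8 to 12 in HS+A10 vs A10 (8 without A10 2, 9 without HS+A10 3), 0 to 2 in A10 vs Con (2 without Con 2), 1 to 4 in HS+A10 vs HS (1 without HS+A10 1, 2 without HS 2), 5 to 10 in A10-FMT vs HS (5 without A10-FMT 2 or A10-FMT 3), 0 to 4 in Con-FMT vs HS (0 without HS 2, Con-FMT 2 or Con-FMT 3) and 5 to 13 in A10-FMT vs Con-FMT (5 without Con-FMT 2, 7 without A10-FMT 2, 8 without A10-FMT 3 or Con-FMT 3).

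Median scaling moved the complement median to -0.20 in HS vs Con, -0.071 in the interaction, 0.064 in A10-FMT vs HS and 0.23 in Con-FMT vs HS, and the coagulation median to -0.24 in HS vs Con, -0.10 in the interaction, 0.052 in A10 vs Con, 0.12 in A10-FMT vs HS, 0.14 in Con-FMT vs HS and 0.059 in A10-FMT vs Con-FMT. Quantile normalization moved the complement median to 0.014 in A10-FMT vs HS and -0.17 in A10-FMT vs Con-FMT, and the coagulation median to -0.13 in the interaction, 0.069 in A10 vs Con, -0.011 in HS+A10 vs HS, 0.061 in A10-FMT vs HS and 0.12 in A10-FMT vs Con-FMT, where the sum without the 10 most abundant genes gave 0.051. With 1 library left out, or Con 3 and A10 3 together, the complement median was -0.13 to 0.023 in HS vs Con and -0.26 to -0.093 in the interaction, and the coagulation median -0.10 to 0.020 in HS vs Con and -0.10 to 0.0061 in A10-FMT vs Con-FMT.

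With the replicate number as a block, 5, 13, 0, 0, 4, 9, 2 and 13 members were called in the 8 comparisons. The numbers share no known origin. Of 45 pairs of libraries with the same number 12 had a correlation of deviations over 0.1 (median 0.007). Of 90 pairs with different numbers 11 did (median -0.007). Counting error could not be given for RPKM values without read numbers.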

Other observations

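Genes that regulate hepatocyte transcription and the acute phase were called in Con-FMT vs HS for 8 higher and 1 lower of 17, where 4.61% of all tested genes were called higher and 19% lower, and the counts were 1 and 0 in HS vs Con and 1 and 1 in A10-FMT vs HS. The 17 include the time-of-day gene Dbp, which is 1 of the higher calls in Con-FMT vs HS (4.34) and the only higher call in A10-FMT vs HS (4.81). Socs3, which interleukin-6 signalling induces, had group means of 2.47 RPKM in Con, 2.11 in A10, 2.96 in HS, 2.85 in HS+A10, 3.81 in A10-FMT and 19.9 in Con-FMT (Con-FMT vs HS log2 difference 2.35, adjusted p = 0.000411, limma), and the interleukin-1 receptor Il1r1 had 14.2, 11.8, 9.27, 8.51, 11.5 and 46.5 RPKM in the same order (2.22, adjusted p = 9.84e-05, limma). Stat3, the transcription factor downstream of interleukin-6, had means of 23.6 RPKM in Con, 24.6 in A10, 27.6 in HS, 17.6 in HS+A10, 16.8 in A10-FMT and 37.1 in Con-FMT, and it was called lower in A10-FMT vs HS (-0.69, adjusted p = 0.00337, limma). Socs3, Il1r1 and Stat3 were highest in Con-FMT replicate 3, the library with pancreatic mRNAs, at 31.9, 51.7 and 47.1 RPKM. The calls of these regulators are not given without that library. Their part in the values of the 37 members was not tested.

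The share of all summed RPKM taken by the 37 members was 2.62% to 2.99% in Con, 2.08% to 2.38% in HS+A10, 1.98% to 2.43% in A10-FMT, while Con-FMT had 3.01% to 3.47%.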
